A study of Mus musculus with 10 samples.

Results

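Thyroid hormone signalling was examined through 8 genes chosen by name: the receptor genes Thra and Thrb, their dimer partner Rxra, the deiodinase genes Dio2 and Dio3, the transporter gene Slc16a10, and the corepressor genes Hr and Ncor1. All 8 were found among the 55471 gene identifiers of the deposited table, and all 8 passed the count filter that left 17101 genes for the test. The libraries came from whole brains of wild-type Swiss Webster mouse pups, labelled as neonatal day 5, in which hypoxia-ischemia, a loss of blood flow and oxygen, had injured the brain. Of these, 5 pups, numbered 6 to 10, received allopregnanolone, a progesterone metabolite and positive modulator of GABA-A receptors, and 5 pups, numbered 1 to 5, received no treatment; whether the steroid was given before or after the injury, and whether the untreated pups received a vehicle, is not stated in the labels. Both groups carried the injury, no uninjured brain was compared, and each pup gave 1 library.

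Thyroid hormone reaches the brain mostly as the prohormone T4, is carried across membranes by transporters, and is turned into the active form T3 by the type 2 deiodinase, which is made mainly in astrocytes and in the tanycytes that line the third ventricle. The type 3 deiodinase, made in neurons, inactivates both forms. T3 binds nuclear receptors that sit on DNA as dimers with retinoid X receptors, where they hold corepressors without hormone and recruit coactivators with it. In the newborn rodent brain the hormone is known for driving myelination and the maturation of neurons.

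Library depth ranged from 18656827 to 34270699 estimated counts, the greatest being that of treated library 6. Counts were scaled to CPM, the usual depth-normalised read count, with TMM factors, and a gene was called changed at an adjusted p under 0.05 in edgeR's quasi-likelihood test across all 17101 genes. The names of untreated libraries 1 to 3 carry another prefix than the other 7 libraries, and what the prefix stands for is not given in the sources used here. Of 6 pituitary markers only Pomc passed the count filter, and their sum was 0.671 to 4.82 CPM in treated and 0.517 to 0.99 CPM in untreated libraries. Tshb, the thyrotropin subunit gene, had 7 counts in all 10 libraries together, and the thyroid gene Tg had 56. Oligodendrocyte markers summed to 6100 to 8240 CPM in treated and 2060 to 3970 CPM in untreated libraries, with 11 of 12 higher. Astrocyte markers summed to 3470 to 3980 CPM in treated and 2690 to 3110 CPM in untreated libraries, with 5 of 10 higher. Of the tested midbrain markers 6 of 7 were higher as well, although their sum in treated libraries 8 and 10 lay within the untreated range. Neuron markers summed to 6130 to 6710 CPM in treated and 6300 to 6920 CPM in untreated libraries, with 1 of 8 higher and 3 lower. Over all genes tested 6.61% were higher and 4.65% lower. More cells of a type and more RNA per cell cannot be told apart in whole-brain RNA, and the part that these marker differences had in the results below was not tested.

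With allopregnanolone Rxra, Hr and Dio2 rose, Thrb fell, and Thra, Ncor1, Dio3 and Slc16a10 did not pass the test. That is 3 of 8 genes higher, where 6.61% of all genes tested were higher, and 1 of 8 lower, where 4.65% of all genes were lower. The median log2 fold change over the 8 genes was 0.11, against 0.00 over all genes tested. The groups did not overlap for Rxra and Hr, where 9.64% of all genes had no overlap, 5.44% with the treated libraries above and 4.2% with them below. Among the 7 libraries that share a name prefix, 5 treated and untreated 4 and 5, only Rxra of the 8 genes passed. Of the 44 genes followed through all analyses 4 passed with it, among them the myelin genes Cnp, Mbp and Mag. Over all 17267 genes tested among those libraries 74 were higher and 23 lower. The 44 include genes named for a small p in these data.

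**Figure D1:**
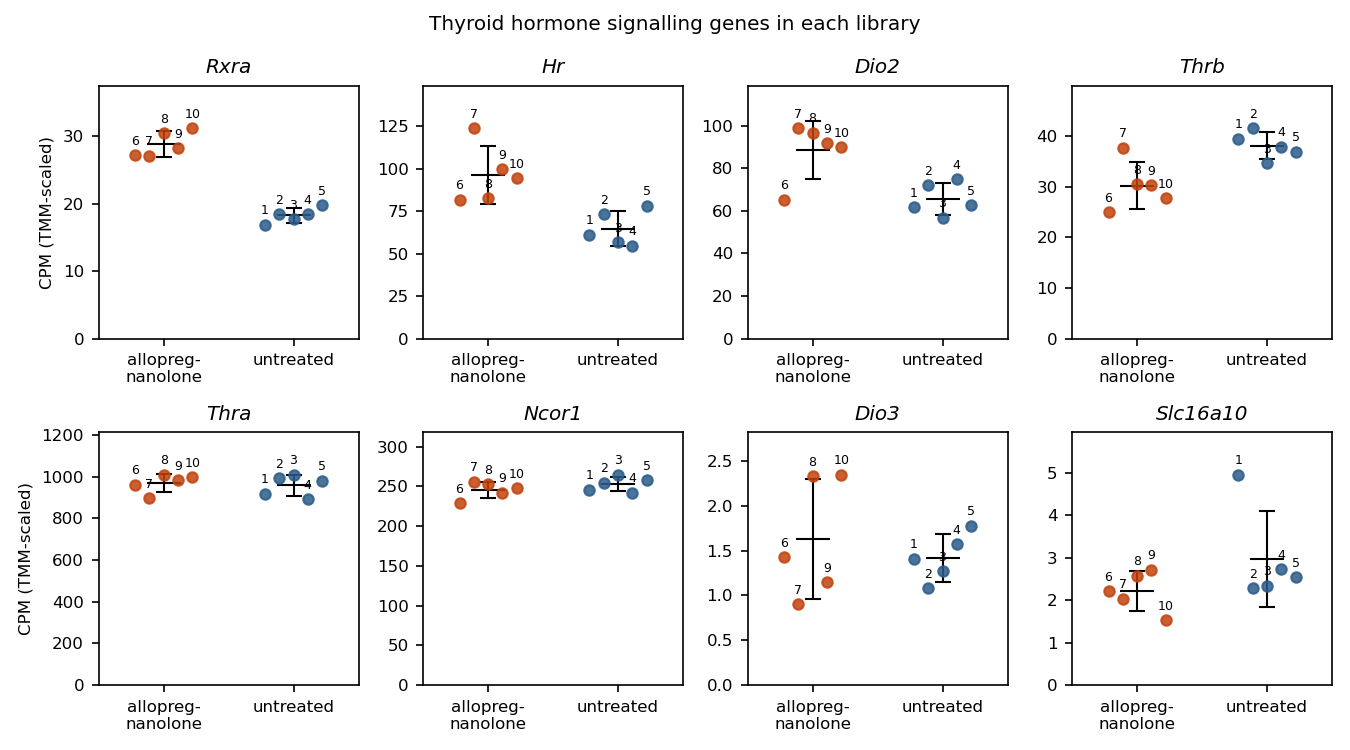
Level of each of the 8 genes in every library, in TMM-scaled CPM on axes that start at 0, with treated libraries (orange) left of untreated libraries (blue). Numbers are pup numbers and bars show mean ± SD (n = 5). The groups stand apart for Rxra and Hr, while treated library 6 lies among the untreated libraries for Dio2 and treated library 7 lies among them for Thrb.

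The levels of the 8 genes spanned a wide range. Per kilobase of annotated exon, Thra was the most abundant at 210 ± 9.85 CPM per kilobase in treated and 208 ± 11.3 in untreated libraries (SD, n = 5 per group). Ncor1 followed at 19.2 ± 0.84 CPM per kilobase treated and 19.8 ± 0.727 untreated. Dio2 and Hr came next, with 15.2 ± 2.33 and 14.0 ± 2.47 CPM per kilobase in treated libraries, and 11.3 ± 1.3 and 9.37 ± 1.52 in untreated libraries (SD, n = 5 per group). The ranges of these 2 genes overlapped in each group, and the difference between them was not tested. Below them the order depended on the group. In treated libraries Rxra (5.28 ± 0.344 CPM per kilobase) stood above Thrb (4.08 ± 0.640), and in untreated libraries Thrb (5.15 ± 0.352) stood above Rxra (3.34 ± 0.192). Dio3, at 0.805 ± 0.331 treated and 0.700 ± 0.133 untreated, and Slc16a10, at 0.301 ± 0.0642 treated and 0.404 ± 0.153 untreated, were the least abundant.

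Rxra, which encodes retinoid X receptor alpha, the shared partner of thyroid hormone, retinoic acid and several other nuclear receptors (ENSMUSG00000015846, GRCm38 chromosome 2, 27676440 to 27762957), rose the most. It stood at 27.2, 27.1, 30.4, 28.2 and 31.2 CPM in treated libraries 6 to 10, against 16.9, 18.4, 17.7, 18.4 and 19.8 CPM in untreated libraries 1 to 5. Every treated library was above every untreated library, and the lowest treated value exceeded the highest untreated value by more than the whole range of the untreated group. The means were 28.8 ± 1.88 CPM treated and 18.3 ± 1.05 CPM untreated (SD, n = 5 per group), a 1.58-fold rise with a log2 fold change of 0.66 (SE 0.07, adjusted p = 0.000153, edgeR). By unadjusted p it ranked 12 among the 17101 genes. The rise was present among the libraries that share a name prefix, with a log2 fold change of 0.59 (adjusted p = 0.0303, edgeR, 5 treated against 2 untreated). Midbrain markers were high in treated libraries 6, 7 and 9 (56.4 to 106 CPM summed) and low in treated libraries 8 and 10 (14.1 and 12.7 CPM). Untreated libraries had 6.68 to 20.6 CPM. Rxra was highest in treated libraries 8 and 10, Hr in treated libraries 7 and 9, and Dio2 in treated libraries 7 and 8. The part of midbrain content in the differences of these 3 genes was not tested. Among the other retinoid X receptor genes, Rxrb stood at 66.6 ± 5.52 CPM treated and 58.0 ± 4.29 CPM untreated (adjusted p = 0.0686, edgeR). Rxrg, at 15.1 ± 6.41 CPM treated and 22 ± 5.11 CPM untreated (SD, n = 5 per group, adjusted p = 0.161, edgeR), differed in sign and varied widely between libraries. Neither passed the test.

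Promoter letters are shown for Rxra, Thrb and Dio2, the members past the threshold for which a RefSeq window was at hand; of the 8 genes 6 had a window, and some had a window at each of several starts. Each window is the 250 bases before a RefSeq start on GRCm38.p6, written 5′ to 3′ on the strand of the gene, and all 9 windows of the 6 genes were searched on both strands. Motifs searched were AGGTCA, the half-site that nuclear receptors of this family bind, a direct repeat of that half-site with a spacer of 4 bases, the spacing typical of thyroid hormone receptors, TGACGTCA, the cyclic AMP response element, and TATAAA. The AGGTCA match lies within the longer repeat where that occurs. Capitals mark every match.
Rxra, chr2:27709042-27709291, plus strand: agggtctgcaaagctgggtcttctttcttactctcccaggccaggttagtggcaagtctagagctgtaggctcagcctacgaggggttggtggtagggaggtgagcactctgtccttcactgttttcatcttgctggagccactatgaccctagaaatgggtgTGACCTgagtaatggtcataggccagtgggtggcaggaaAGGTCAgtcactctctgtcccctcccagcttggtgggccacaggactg
Thrb, chr14:17660710-17660959, plus strand: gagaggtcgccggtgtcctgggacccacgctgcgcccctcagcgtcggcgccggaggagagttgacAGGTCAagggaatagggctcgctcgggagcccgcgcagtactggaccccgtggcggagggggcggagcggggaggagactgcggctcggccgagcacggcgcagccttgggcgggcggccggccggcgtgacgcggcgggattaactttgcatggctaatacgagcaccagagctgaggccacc
Dio2, chr12:90739039-90739288, minus strand: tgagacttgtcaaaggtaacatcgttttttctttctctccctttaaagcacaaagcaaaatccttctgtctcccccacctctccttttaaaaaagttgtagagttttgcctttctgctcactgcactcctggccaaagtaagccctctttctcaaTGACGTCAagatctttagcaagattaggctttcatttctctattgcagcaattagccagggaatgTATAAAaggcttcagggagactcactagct
The Rxra window at its downstream start held 2 half-sites, from 48 to 43 bases before the start and, on the opposite strand, from 87 to 82 bases before it. The Rxra window at its upstream start, which is not printed, held none of the motifs searched. The Thrb window at its upstream start held 1 half-site, from 184 to 179 bases before the start. A half-site is common, being present in 14.0% of 32851 RefSeq windows of this length. The RefSeq start of Dio2 lies upstream of the GENCODE gene given below. Its window held a cyclic AMP response element from 95 to 88 bases before the start, a motif present in 1.55% of windows, and a TATA motif from 30 to 25 bases before it, present in 12.4% of windows. A TATA motif was also found 31 to 26 bases before the start of Dio3 and 167 to 162 bases before the downstream start of Thrb. The direct repeat of the half-site with a spacer of 4 bases was in none of the 9 windows, and in 0.0152% of all windows.

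Of the thyroid hormone receptor genes Thrb passed the test and Thra did not. Thra (ENSMUSG00000058756, chromosome 11, 98740638 to 98769006) encodes the hormone-binding receptor alpha1, the main receptor of the developing brain, and the splice variant alpha2 that does not bind T3, which a count per gene cannot separate. It stood at 961, 896, 1010, 983 and 998 CPM in treated libraries 6 to 10, against 919, 994, 1010, 891 and 980 CPM in untreated libraries 1 to 5, and the groups overlapped almost fully. Its log2 fold change was 0.02 (SE 0.05, 95% interval -0.10 to 0.13, adjusted p = 0.889, edgeR), and with library totals alone it was -0.04. Of its exon bases 5.7% lie opposite exons of Nr1d1, which encodes the clock repressor REV-ERB alpha. Nr1d1 stood at 113 ± 10.1 CPM treated and 88.4 ± 14.2 CPM untreated (SD, n = 5 per group, adjusted p = 0.0314, edgeR), and since the strand setting of the counting is not stated, reads from the shared bases cannot be assigned to either gene. The call of Nr1d1 was lost without any 1 of libraries 1, 3, 4, 6, 7 or 9 (adjusted p = 0.0528 to 0.0837, edgeR).

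Thrb (ENSMUSG00000021779, chromosome 14, 17660261 to 18038090) encodes receptor beta, which appears later in brain development than receptor alpha and is known for its part in hormone feedback, hearing and vision. It stood at 25.0, 37.7, 30.5, 30.3 and 27.7 CPM in treated libraries 6 to 10, against 39.5, 41.6, 34.7, 37.9 and 36.9 CPM in untreated libraries 1 to 5. Treated libraries 6, 8, 9 and 10 were below every untreated library, and treated library 7 lay within the untreated range. The means were 30.2 ± 4.74 CPM treated and 38.1 ± 2.61 CPM untreated (SD, n = 5 per group), a fall of 1.27-fold with a log2 fold change of -0.34 (SE 0.09, adjusted p = 0.0327, edgeR). The call was close to the threshold. It was lost without any 1 of libraries 1, 2, 4, 6, 8, 9 or 10 (adjusted p = 0.0524 to 0.0748, edgeR), and among the libraries of a shared name prefix (log2 fold change -0.32, adjusted p = 0.277, edgeR). As a share of the summed level per kilobase of Thra and Thrb, Thrb made up 1.91% ± 0.375 in treated and 2.42% ± 0.227 in untreated libraries (SD, n = 5 per group). The share was 1.59%, 2.55%, 1.84%, 1.88% and 1.70% in treated libraries 6 to 10, against 2.61%, 2.54%, 2.08%, 2.58% and 2.30% in untreated libraries 1 to 5, so that 4 treated libraries lay below all untreated ones.

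Of the deiodinases the activating one was higher. Dio2, which encodes the type 2 deiodinase (ENSMUSG00000007682, chromosome 12, 90724552 to 90738438), stood at 65.3, 99.0, 96.8, 91.9 and 90.1 CPM in treated libraries 6 to 10, against 61.9, 72.2, 56.8, 74.9 and 62.8 CPM in untreated libraries 1 to 5. Treated libraries 7 to 10 were above every untreated library, and treated library 6 stood apart from them, within the untreated range. The means were 88.6 ± 13.5 CPM treated and 65.7 ± 7.57 CPM untreated (SD, n = 5 per group), a rise of 1.35-fold with a log2 fold change of 0.43 (SE 0.11, adjusted p = 0.0215, edgeR). The call was lost without any 1 of libraries 1, 3, 7, 8 or 9 (adjusted p = 0.0506 to 0.0615, edgeR), and among the libraries of a shared name prefix (log2 fold change 0.36, adjusted p = 0.274, edgeR). Without untreated library 5 and treated library 6 together it held, with a log2 fold change of 0.50 (adjusted p = 0.00265, edgeR). Only 1.72% of its exon bases lie opposite those of another gene, the noncoding Gm26512 (0.818 ± 0.234 CPM treated and 0.643 ± 0.431 CPM untreated, SD, n = 5 per group). Of the astrocyte markers 5 of 10 were higher and 0 lower, where 6.61% of all genes tested were higher and 4.65% lower. Among those that did not pass were Aqp4, at 194 CPM treated and 245 CPM untreated, and Sox9, at 44.9 and 45.2 CPM. Of the tanycyte markers 0 of 6 passed the threshold, with sums of 82.3 to 124 CPM in treated and 115 to 141 CPM in untreated libraries. The part of either cell type in the Dio2 difference was not tested. The tanycyte gene Rax had 7 counts in all.

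Dio3, the imprinted gene of the inactivating type 3 deiodinase (ENSMUSG00000075707, chromosome 12, 110279068 to 110281097), had 16 to 49 counts a library. It stood at 1.43, 0.901, 2.33, 1.15 and 2.35 CPM in treated libraries 6 to 10, against 1.41, 1.08, 1.27, 1.57 and 1.78 CPM in untreated libraries 1 to 5. The untreated values lay inside the treated range, and treated libraries 8 and 10 were the highest of all. The log2 fold change of 0.20 (SE 0.28, 95% interval -0.39 to 0.80, adjusted p = 0.686, edgeR) leaves room for a difference in either direction. With 1 library left out it ran from 0.04, without treated library 8 or 10, to 0.35, without treated library 7. Per kilobase, Dio2 was 13.4 to 38.4 times as abundant as Dio3 in treated and 12.3 to 23.4 times in untreated libraries. The third deiodinase gene, Dio1, known from liver and kidney, had 8 counts in all 10 libraries and was not tested.

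Slc16a10, which encodes the monocarboxylate transporter MCT10 for aromatic amino acids and thyroid hormone (ENSMUSG00000019838, chromosome 10, 40033532 to 40142258), was also scarce, with 32 to 127 counts a library. It stood at 2.21, 2.03, 2.58, 2.72 and 1.53 CPM in treated libraries 6 to 10, against 4.96, 2.28, 2.34, 2.73 and 2.54 CPM in untreated libraries 1 to 5. The groups overlapped apart from untreated library 1, which stood far above the other 9 libraries. Its log2 fold change of -0.42 (edgeR, SE 0.24, adjusted p = 0.278) did not pass, and without untreated library 1 it was -0.16.

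Of the corepressor genes Hr rose and Ncor1 did not pass. Hr, which encodes hairless, a corepressor that binds thyroid hormone receptors and whose gene is itself raised by T3 in the rodent brain (ENSMUSG00000022096, chromosome 14, 70552212 to 70573548), stood at 81.8, 124, 82.8, 99.6 and 94.4 CPM in treated libraries 6 to 10, against 61.2, 73.4, 56.6, 54.6 and 78.3 CPM in untreated libraries 1 to 5. Every treated library was above every untreated library, by a narrow margin between treated library 6 and untreated library 5. The means were 96.5 ± 17.1 CPM treated and 64.8 ± 10.5 CPM untreated (SD, n = 5 per group), a 1.49-fold rise with a log2 fold change of 0.57 (SE 0.12, adjusted p = 0.0104, edgeR). The rise passed with each of the 10 libraries left out in turn (adjusted p = 0.00522 to 0.033, edgeR). Among the libraries of a shared name prefix the log2 fold change was similar at 0.53 and did not pass (adjusted p = 0.181, edgeR, 5 treated against 2 untreated).

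Ncor1, the nuclear receptor corepressor on which unliganded thyroid hormone receptors rely (ENSMUSG00000018501, chromosome 11, 62316426 to 62458541), stood at 229, 256, 253, 242 and 248 CPM in treated libraries 6 to 10, against 246, 255, 265, 242 and 258 CPM in untreated libraries 1 to 5. The groups overlapped, and the 95% interval of the log2 fold change ran from -0.15 to 0.06 (estimate -0.05, SE 0.05, adjusted p = 0.574, edgeR). Its exons share only 0.64% of their bases with Pigl and less with Ttc19 on the opposite strand, and neither of these passed. Of the 7 genes of the corepressor complex 2 rose, Hr among them, and none fell, with a median log2 fold change of 0.02. The share higher over all genes tested was 6.61%. The complex members Gps2, Tbl1x and Tbl1xr1 did not pass, with log2 fold changes between -0.08 (Tbl1x) and 0.11 (Gps2).

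**Figure D2:**
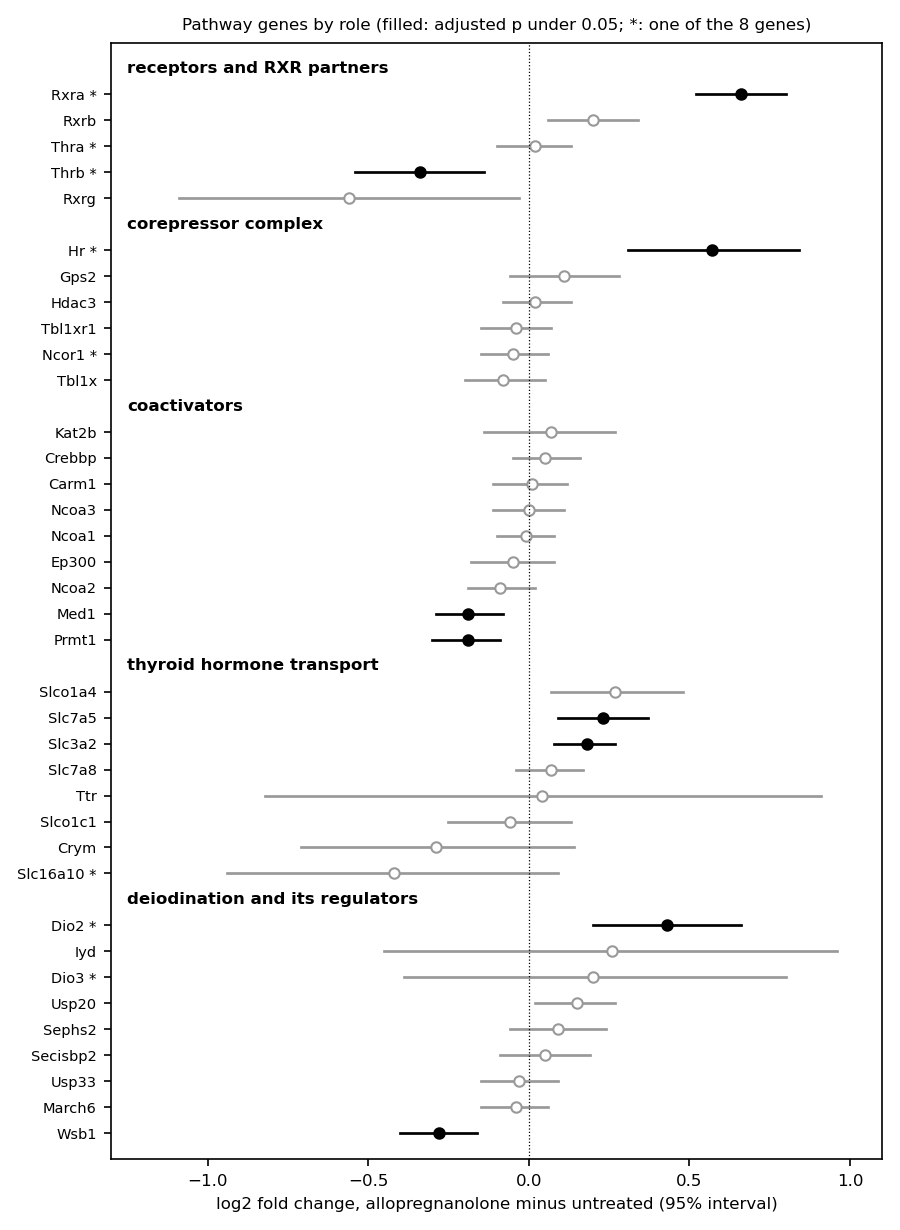
Log2 fold change, allopregnanolone minus untreated, with 95% interval from edgeR's fit, for most of the pathway genes that passed the count filter, grouped by role. Filled points passed an adjusted p of 0.05 and asterisks mark the 8 genes chosen by name. Rxra and Hr lie farthest to the right, and Wsb1, Thrb, Med1 and Prmt1 are the filled points left of 0.

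Of 9 coactivator genes 2 fell and none rose, with a median log2 fold change of -0.01, where 4.65% of all genes tested were lower. Med1, the Mediator subunit that contacts liganded nuclear receptors, stood at 53.2 ± 3.04 CPM treated and 60.5 ± 1.09 CPM untreated (SD, n = 5 per group, log2 fold change -0.19, adjusted p = 0.0271, edgeR). Prmt1, an arginine methyltransferase that acts as a coactivator, stood at 46.8 ± 2.44 CPM treated and 53.4 ± 1.58 CPM untreated (SD, n = 5 per group, log2 fold change -0.19, adjusted p = 0.0254, edgeR). The groups did not overlap for either gene, although the differences were small. Of all genes tested 4.2% had no overlap with the treated libraries below. The call was lost for Med1 without any 1 of libraries 3, 4 or 10 (adjusted p = 0.0556 to 0.0627, edgeR) and for Prmt1 without any 1 of libraries 1, 3, 4, 7 or 9 (adjusted p = 0.0501 to 0.0548, edgeR). Ncoa2 and Crebbp, at log2 fold changes of -0.09 (SE 0.05) and 0.05 (SE 0.05), did not pass.

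Of 9 genes of hormone transport and binding 2 rose and none fell, with a median log2 fold change of 0.04. Over all genes tested 6.61% were higher. The transport genes that rose were Slc3a2 and Slc7a5, the heavy and light chain of a large neutral amino acid transporter that also carries thyroid hormone. Slc3a2 stood at 122 ± 4.31 CPM treated and 108 ± 3.44 CPM untreated (SD, n = 5 per group, adjusted p = 0.021, edgeR), and Slc7a5 at 155 ± 11.6 CPM treated and 133 ± 11 CPM untreated (SD, n = 5 per group, adjusted p = 0.041, edgeR). Slc3a2 lost its call without any 1 of libraries 3, 4, 9 or 10 (adjusted p = 0.0519 to 0.0615, edgeR), and Slc7a5 without any 1 of libraries 1, 2, 3, 4, 7, 8, 9 or 10 (adjusted p = 0.0523 to 0.108, edgeR). With library totals alone neither passed, at log2 fold changes of 0.12 for Slc3a2 (adjusted p = 0.0954, edgeR) and 0.17 for Slc7a5 (adjusted p = 0.0945, edgeR), and Slc3a2 did not pass without untreated library 5 and treated library 6 together (adjusted p = 0.0503, edgeR). Endothelial markers, Slco1a4 among them, summed to 211 to 240 CPM in treated and 176 to 193 CPM in untreated libraries, with 3 of 8 higher and 0 lower, and their part in these calls was not tested. Slco1c1 (OATP1C1), a thyroxine carrier of the mouse brain barrier that fell outside the rule for named genes, stood at 53.5 ± 4.95 CPM treated and 55.8 ± 7.59 CPM untreated (SD, n = 5 per group) and did not pass. Slco1a4, an organic anion carrier of the barrier, and Crym, a T3-binding protein of the cytosol, had log2 fold changes of 0.27 (SE 0.10, adjusted p = 0.0803, edgeR) and -0.29 (SE 0.20, adjusted p = 0.384, edgeR).

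Among 10 genes of deiodination and its regulation, 9 passed the count filter, Dio2 rose and Wsb1 fell. The shares over all genes tested were 6.61% higher and 4.65% lower. Wsb1, which encodes a subunit of a ubiquitin ligase that marks type 2 deiodinase for breakdown, stood at 68.2, 62.3, 64.4, 62.5 and 65.8 CPM in treated libraries 6 to 10, against 79.5, 72.5, 86.0, 80.8 and 72.9 CPM in untreated libraries 1 to 5. Every treated library was below every untreated library. The log2 fold change of -0.28 (edgeR, SE 0.06, adjusted p = 0.00777) passed with each of the 10 libraries left out in turn (adjusted p = 0.00569 to 0.0231, edgeR) but not among the libraries of a shared name prefix (log2 fold change -0.25, adjusted p = 0.142, edgeR). The other ligase gene, March6, had a log2 fold change of -0.04 (SE 0.05, adjusted p = 0.622, edgeR). Usp20, a deubiquitinase that spares type 2 deiodinase, stood at 69.2 ± 1.18 CPM treated and 62.4 ± 5.52 CPM untreated (SD, n = 5 per group, adjusted p = 0.117, edgeR), and Sephs2, an enzyme that supplies selenium for selenoproteins, had a log2 fold change of 0.09 (SE 0.07).

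Genes known to be raised by T3 in the brain were higher in 10 of 19 tested cases and lower in none. Over all genes tested 6.61% were higher and 4.65% lower. The median log2 fold change was 0.37 for these genes, against 0.00 over all genes tested. This list of 20 genes was drawn up with earlier results of these data known, and it holds 5 genes of the oligodendrocyte marker list, all of which rose. Among them the myelin genes Mbp and Mag each rose 2.35-fold, and Cnp rose 1.86-fold. Of the other 14 tested genes 5 rose and none fell, with a median log2 fold change of 0.305. Beside Hr the genes that rose were Klf9, Dbp, Kcnj10 and Thrsp, which are named here after their values were seen. Klf9, a transcription factor and direct T3 target in the rodent brain, stood at 269 ± 42.4 CPM treated and 207 ± 17.2 CPM untreated (SD, n = 5 per group, adjusted p = 0.0308, edgeR). Treated library 6 was at 196 CPM for Klf9, within the untreated range of 184 to 226 CPM, and the other treated libraries were at 267 to 300 CPM. Thrsp, the thyroid hormone responsive gene of lipid synthesis, rose 1.76-fold to 8.63 ± 1.94 CPM in treated libraries, against 4.90 ± 1.13 CPM in untreated libraries (SD, n = 5 per group, adjusted p = 0.00991, edgeR). Kcnj10, the potassium channel Kir4.1 of astrocytes and oligodendrocytes, rose 1.36-fold (adjusted p = 0.00506, edgeR), and the clock output factor Dbp 1.3-fold (adjusted p = 0.0241, edgeR). Klf9 lost its call without any 1 of libraries 1, 3, 4, 7, 8, 9 or 10 (adjusted p = 0.0561 to 0.083, edgeR) and Dbp without any 1 of libraries 1, 2, 3, 4, 7 or 9 (adjusted p = 0.0531 to 0.0622, edgeR). Klf9 is known to respond to glucocorticoids as well, and Dbp to the circadian clock. Pcp2, a Purkinje cell gene, was below the count filter and not tested. It stood at 2.03 and 2.11 CPM in treated libraries 9 and 10, at 0 to 0.358 CPM in treated libraries 6 to 8 and at 0 to 0.172 CPM in untreated libraries. The cerebellar markers Gabra6 and Cbln3 were also highest in treated libraries 9 and 10, but Zic1, Barhl1 and Neurod1 were highest in treated library 6. Cerebellar markers summed to 216 and 259 CPM in treated libraries 9 and 10. The sums over all libraries were 173 to 279 CPM treated and 179 to 266 CPM untreated. Of the exon bases of Pcp2 51.5% lie opposite Pet100.

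**Figure D3:**
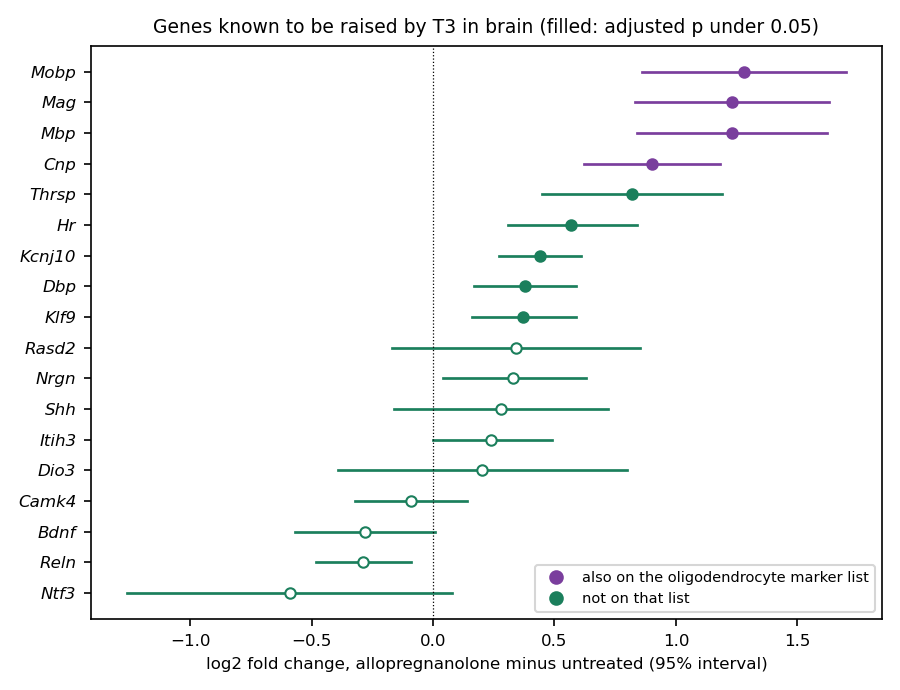
Log2 fold change, allopregnanolone minus untreated, with 95% interval, for all but 1 of the 19 tested genes that T3 is known to raise in the brain. Filled points passed an adjusted p of 0.05, and purple marks genes that are also on the oligodendrocyte marker list. The 4 purple genes have the largest changes of those drawn, and 5 of the 14 green genes are filled, all right of 0.

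Of 4 genes listed as lowered by T3, Thrb and Tnc fell, Dio2 rose and Cntn2 did not pass. Over all genes tested 6.61% were higher and 4.65% lower. Thrb and Dio2 are also among the 8 genes chosen by name, so their results are the same as those given above. Tnc, which encodes the matrix protein tenascin C of young astrocytes, stood at 24.0, 17.5, 19.9, 27.8 and 20.9 CPM in treated libraries 6 to 10, against 31.5, 42.1, 40.0, 37.9 and 36.3 CPM in untreated libraries 1 to 5. Every treated library was below every untreated library, with a log2 fold change of -0.77 (edgeR, SE 0.11, adjusted p = 0.00146). Among the libraries of a shared name prefix its log2 fold change was -0.75 (adjusted p = 0.0547, edgeR). Cntn2, an axonal adhesion molecule, had a log2 fold change of 0.06 (SE 0.06, adjusted p = 0.573, edgeR). Of the 8 genes of the thyrotroph axis 4 passed the count filter, and 0 of these passed edgeR's test, with 1 of them, Pomc, at an unadjusted p under 0.05. Trh, the thyrotropin-releasing hormone of the hypothalamus, stood at 11.6 CPM treated and 11.3 CPM untreated, and its receptor gene Trhr at 5.79 CPM treated and 6.71 CPM untreated. Tshr had a log2 fold change of -0.48 (SE 0.33), which was -0.30 without treated library 6 and -0.75 without treated library 9. Pomc had one of 0.83 (SE 0.38), which was 0.49 without treated library 8.

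Treated library 6 was the lowest treated library for Dio2, Thrb, Hr and Ncor1, and treated library 7 was the highest treated library for the same 4 genes, although Hr and Dio2 rose and Thrb fell. Treated libraries 8 and 10 were the highest for Rxra, Thra and Dio3. In the untreated group library 5 was the highest for Rxra, Hr and Dio3, and library 1, highest for Slc16a10, was the lowest for Rxra.

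**Figure D4:**
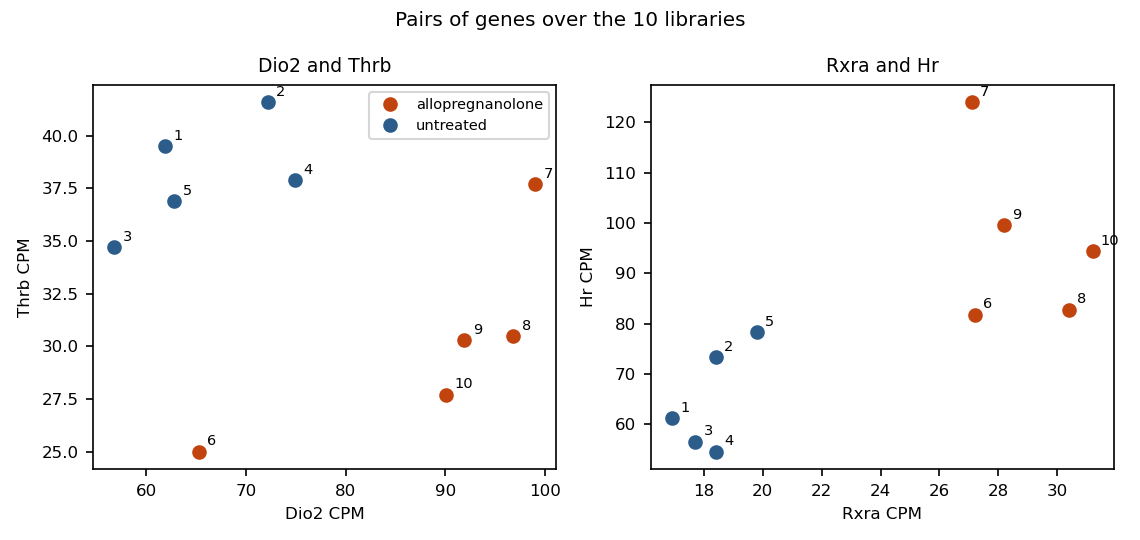
Left, Dio2 against Thrb, and right, Rxra against Hr, in CPM for each of the 10 libraries, with treated libraries in orange and untreated libraries in blue and pup numbers beside the points. On the right the groups separate along both axes. On the left treated libraries 8, 9 and 10 sit at high Dio2 and low Thrb, library 7 is high for both among the treated, and library 6 is low for both.

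By Pearson's r of log2 CPM over the 10 libraries, which carries the difference between the groups, the genes most like Rxra were Glul (r = 0.993), Usp54 (r = 0.981) and Sult1a1 (r = 0.98). Those most like Hr were Scn8a (r = 0.983), Map6d1 (r = 0.971) and Cyp46a1 (r = 0.967), and those most like Dio2 were March2 (r = 0.948), Nr1d2 (r = 0.944) and Fgfr1op2 (r = 0.942). By deviations from the group means the nearest genes were Dram1 for Rxra (r = 0.962), Atp2b2 for Hr (r = 0.964) and Mtpn for Dio2 (r = 0.971). Scn8a was among the nearest 3 genes of Hr by either measure, and for Rxra and Dio2 the nearest 3 differed between the measures. All these genes were picked for the highest r in a search of the named genes kept, over only 10 libraries. How high r would reach among unrelated genes was not tested.

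Alternative analyses numbered 20. Rxra passed in 20 of 20 (log2 fold change 0.59 to 0.70), Hr in 19, Dio2 in 14 and Thrb in 11, and the sign of these 4 genes was the same in each. Thra and Ncor1 passed in none of 20, and Dio3 and Slc16a10 in none of the 19 that tested them, a filter of 100 counts having left them out.

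**Figure D5:**
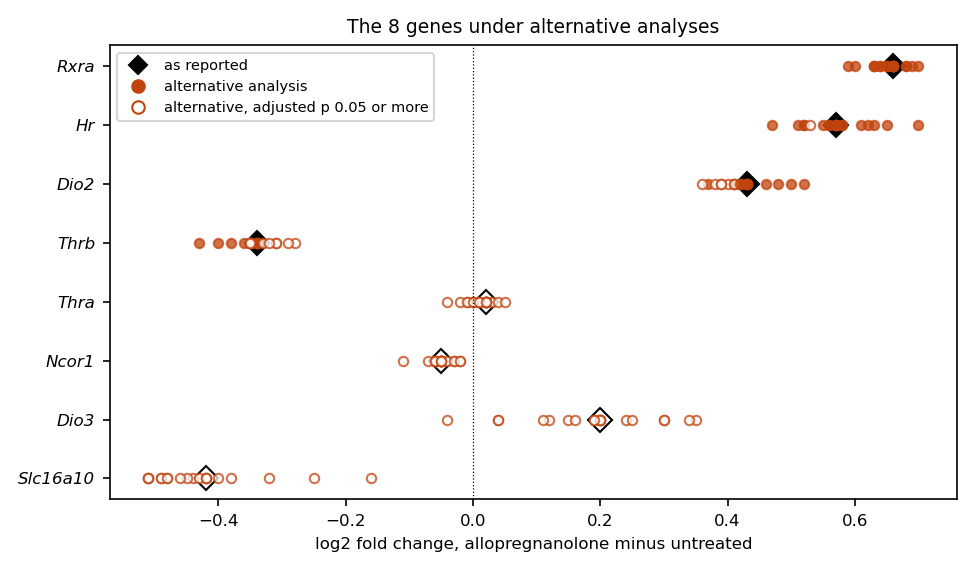
Log2 fold change of the 8 genes, allopregnanolone minus untreated, as reported (black diamonds) and under up to 20 alternative analyses (circles), where filled symbols passed an adjusted p of 0.05. Circles of Rxra are filled throughout, those of Dio2 and Thrb are partly open, and those of Thra lie on either side of 0.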

How the data were processed

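RNA-seq libraries were made from 1 whole brain each, per the labels' protocols with the RNeasy Mini Plus and NEBNext Ultra II Directional kits. The submitters' processing notes name Partek and mm10; for the aligner, counting program, annotation and strand setting the sources used here give nothing. The deposited table holds estimated counts (expected counts) per Ensembl gene. Its name says normalized, but 86.8% to 87.6% of values above 0 were exactly whole, with no tolerance, and totals differed, so values were rounded and analysed as counts. Symbols and coordinates came from GENCODE M21 (GRCm38; 55230 of 55471 identifiers found), and promoters from RefSeq.

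Genes with at least 10 counts in 5 or more libraries were kept, scaled by TMM (factors 0.953 to 1.04) and tested with edgeR 4.0.16 in R 4.3.3 (quasi-likelihood, two-sided, no covariate, Benjamini-Hochberg over 17101 genes). Standard errors are the absolute log2 fold change over the square root of F, and intervals are at 95%. The same code was run on counts simulated from the means and dispersions of these data, which held no batch or cell-type differences. Libraries of a group differed beyond counting noise (chi-square per degree of freedom 5.45 to 19.8). P-values measure the spread between pups; litters and dose were not used here. Alternatives used limma 3.58.1, DESeq2 1.42.0, other scalings and filters, a Y-linked covariate and left-out libraries. Figures were drawn with matplotlib 3.10.9.

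The 8 members, the lists and the tests were chosen with earlier results of these data known. Named are the 8 members, up to 4 further genes of smallest p per list, genes on the opposite strand, and the 3 genes nearest to the 3 members of smallest p. Exceptions are stated. Some genes of the lists enter the counts but are not reported here by name.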

Additional observations from a re-analysis of the deposited data

Results flagged for a closer look

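Dio2 in treated library 6, at 65.3 CPM, stood apart from the other treated libraries, which were at 90.1 to 99.0 CPM, and Slc16a10 in untreated library 1, at 4.96 CPM, stood apart from the other untreated libraries at 2.28 to 2.73 CPM. In each case the gap to the nearest library of the group was a larger share of the range (0.734 and 0.835) than Dixon's 95% limit of 0.71 for 5 samples. Of 16 groups of 5 examined, chance flags about 1 in 20.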

How the results depend on the processing

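Over all genes 1131 were higher and 795 lower. With library totals alone 783 were higher and 1451 lower, the share of higher genes among those called being 35.0% against 58.7%. Among the libraries of a shared name prefix these counts were 74 and 23, with 1 of the 8 genes higher, 0 lower and 5 of the T3-raised genes higher. With 1 library left out the counts ran from 642 to 1346 higher and 435 to 978 lower, and 0 to 1 of the 8 genes were lower. In 5 of those analyses 2 of the 8 genes were higher in place of 3, Dio2 being the one lost. The counts moved by over 1.5 times without untreated library 1 (713 higher, 504 lower), 3 (642 and 471) or 4 (647 and 435). Without untreated library 5 and treated library 6 together, an analysis added after seeing the data, 3 of the 8 genes were higher and 0 lower, Thrb having an adjusted p of 0.0502 (edgeR).

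Signs turned only for genes that did not pass. With library totals alone the log2 fold change was -0.04 for Thra, -0.01 for Crebbp and Ttc19 and -0.02 for Trh. Among the libraries of a shared name prefix it was -0.04 for Dio3, 0.03 for Tbl1xr1, -0.18 for Trh and -0.03 for Pigl. With 1 library left out it ran from -0.02 to 0.04 for Thra and from -0.05 to 0.15 for Trh. No paired analysis was made, as pup numbers run on across the groups and litters were not used here. Depth limits Dio3 and Slc16a10, with as few as 16 and 32 counts in a library. The fit among the libraries of a shared name prefix has 2 untreated libraries, and the cause of its lower counts was not tested.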
